A study of Homo sapiens with 6 samples.

Results

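The collagen genes were taken as the protein-coding genes whose symbol has the form COL, number, A, number in RefSeq (GRCh38.p14) on chromosomes 1 to 22 and X. There were 44 of them among 19970 protein-coding genes, spread over 17 chromosomes. Open chromatin was mapped by ATAC-seq, where a transposase places adapters in accessible DNA. The cells were Nthy-ORI, an established line of immortalised follicular epithelium from a normal human thyroid. All cells were first kept for 24 h in medium with charcoal-stripped serum, which is low in hormones. They then received the NaOH vehicle (labelled 6 h), 10 nM of the thyroid hormone T3 for 6 h, or 10 nM T3 for 24 h, with 2 samples in each group. Each group is represented by 1 deposited list of peaks found in both samples, with 7103 peaks for vehicle, 12385 for T3 6 h and 60661 for T3 24 h. With 1 list per condition, no test between conditions is possible, and hormone cannot be told apart from time at 24 h because no 24 h vehicle list was analysed here. The lists also differed in quality: the median gap between replicate summits was 180 bp in vehicle, 222 bp at 6 h and 46 bp at 24 h. Sequencing depth is unknown, so a gene without a peak is not shown to be closed, and a peak in bulk cells does not tell how many cells were open there. Among markers of thyroid follicular cells, PAX8, FOXE1, HHEX, NKX2-1 and TSHR had a T3 24 h peak within 1 kb of a gene boundary, while TG and SLC5A5 had none. Of 6 fibroblast markers, TWIST2 and PDGFRB had one, and PDGFRA, THY1, LUM and DCN did not. Of all protein-coding genes 60.8% had one, and weighted for gene length the background was 4.88 genes over the thyroid list, where 5 had a peak, and 3.85 over the fibroblast list.

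Collagens are the main proteins of the extracellular matrix, and their chains wind around each other into long helices. Fibrillar collagens such as types I and III give connective tissue its tensile strength, type IV forms the sheet of basement membranes that surrounds thyroid follicles, and type VI forms beaded filaments around cells. FACIT collagens (fibril-associated collagens with interrupted helices) coat fibrils, multiplexins sit in basement membrane zones, and transmembrane collagens are anchored in the cell surface. In most tissues fibroblasts make the fibrillar types, and epithelial cells contribute type IV and other basement membrane components.

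At gene boundaries the collagen genes held fewer peaks in the T3 24 h list than the share of all genes. In the full lists, the counts inside and around them lay near the background weighted for gene length, apart from a lower inside count in vehicle. In the shorter lists the T3 6 h count around them lay above that background, with 22 against 15.9 among the 7103 strongest peaks. A peak counted for a gene end when the mean of its replicate summits lay within 1 kb of either RefSeq boundary. At 24 h, 17 of the 44 collagen genes had such a peak (38.6%), against 60.8% of all protein-coding genes. Collagen genes are long, with a median of 145 kb against 24.2 kb, and 21 of them belong to the longest of 10 equal length classes. When the share of all genes in each class was weighted to the lengths of the collagen genes, 29.9 of 44 would have carried a peak. This background is a description and not a test. It depends on how deep the lists go: among the 7103 strongest peaks of each list, the gene-end counts were 0 in vehicle, 1 at 6 h and 0 at 24 h, with a background of 8.40 at 24 h. In the T3 6 h list 2 collagen genes had a gene-end peak, where 10.8% of all genes did and the length-weighted background was 5.32. In vehicle the count was 0, against 1.34% of all genes and a background of 0.641.

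**Figure D1:**
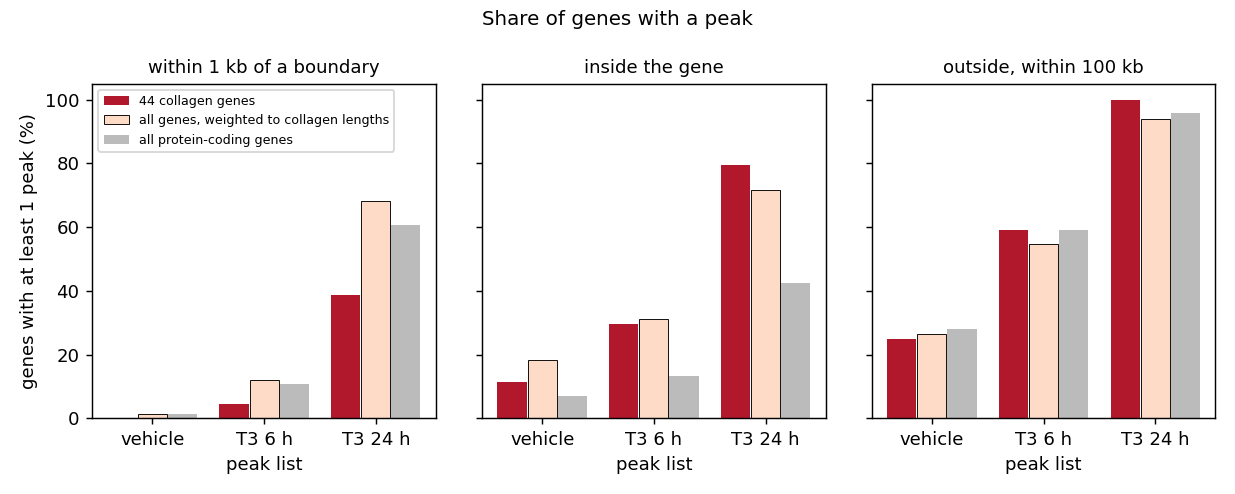
Percentage of genes with at least 1 peak (y axis) in each of the 3 lists (x axis), within 1 kb of a gene boundary, inside the gene, or outside it within 100 kb. Red bars are the 44 collagen genes, pale bars all genes weighted to the collagen lengths and grey bars all 19970 genes; each bar is 1 list, so there are no error bars. At gene boundaries in the T3 24 h list the red bar (38.6%) lies below the pale (68.1%) and grey (60.8%) bars.

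The RefSeq promoter set used here held the strand of 32 collagen genes, and for these the start and far end could be told apart. The other 12, among them COL1A1, COL1A2 and COL3A1, are not in the counts by start. At 24 h, 11 of these 32 had a peak within 1 kb of the start (34.4%), against 60.8% of 15812 genes with a known strand. COL5A3 was the member with a peak at the far end instead, where 7.01% of all genes had one. A different question was whether a peak's interval, and not its summit, overlapped the 250 bases before the start. Here the start was the outermost one in the promoter set, which can differ from the gene boundary. Such an overlap was found for 10 of 32 collagen genes (31.2%), against 58.8% of the 15812 genes. At 6 h and in vehicle it was 0 of 32, against 10.7% and 1.09% of all genes. Counting every start that RefSeq lists for a gene added COL21A1, which has a peak over the window of another start.

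The base composition of these 250 bases overlapped between the collagen genes with a peak and those without. Over all genes, windows under a T3 24 h peak had a median GC content of 65.2% and 21 CpG dinucleotides, and windows without one 55.2% and 5. Among collagen genes the 10 windows with a peak had a median GC content of 64.4% (48.4% to 78.8%) and the 22 without 65.8% (32.4% to 88.4%), with medians of 21.5 and 12 CpG. The GC range of the windows with a peak lay within that of the windows without. For CpG the ranges were 6 to 40 and 1 to 37. The collagen window richest in GC, that of COL18A1 at 88.4%, had no peak, and neither had COL8A2 at 82.0% or COL6A2 at 79.6%. COL10A1, the hypertrophic cartilage collagen, had the window poorest in GC, 32.4%, and no peak. The promoter set lists 3 starts for COL10A1 and 2 for COL18A1, and GC content was taken before the outermost only. Weighting all genes to the collagen windows in 10 GC classes gave a background of 19.3 of 32 genes with a peak. This weighting was chosen after the data were seen.

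The following bases before the start (RefSeq, GRCh38.p14, 5′ to 3′ on the gene's strand) are those of the members with the strongest T3 24 h peaks over them. Capitals mark matches, on either strand, to TGANTCA (the AP-1 site), GGGCGG (the GC box), CCAAT (the NF-Y site), TATAAA (the TATA box) or AGGTCA (the nuclear receptor element). DR4, the direct repeat of AGGTCA with a spacer that thyroid hormone receptors bind, was searched too, and it contains AGGTCA. The windows lie at chr6:75206054-75206303 (minus strand, COL12A1), chr3:48595330-48595579 (minus, COL7A1), chr4:109302659-109302908 (minus, COL25A1), chr1:86156773-86157022 (minus, COL24A1), chr6:69866306-69866555 (plus, COL19A1), chr9:98943657-98943906 (plus, COL15A1) and chr10:69801656-69801905 (plus, COL13A1).
COL12A1: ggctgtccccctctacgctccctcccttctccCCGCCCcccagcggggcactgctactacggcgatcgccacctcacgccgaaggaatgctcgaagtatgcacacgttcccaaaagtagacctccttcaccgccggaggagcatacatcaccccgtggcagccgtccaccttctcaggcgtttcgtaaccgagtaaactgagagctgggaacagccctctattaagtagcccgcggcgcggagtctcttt
COL7A1: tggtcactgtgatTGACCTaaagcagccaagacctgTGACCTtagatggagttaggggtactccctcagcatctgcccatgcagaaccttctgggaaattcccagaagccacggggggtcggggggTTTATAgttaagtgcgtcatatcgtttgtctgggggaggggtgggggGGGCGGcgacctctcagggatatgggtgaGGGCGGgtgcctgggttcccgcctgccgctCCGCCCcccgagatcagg
COL25A1: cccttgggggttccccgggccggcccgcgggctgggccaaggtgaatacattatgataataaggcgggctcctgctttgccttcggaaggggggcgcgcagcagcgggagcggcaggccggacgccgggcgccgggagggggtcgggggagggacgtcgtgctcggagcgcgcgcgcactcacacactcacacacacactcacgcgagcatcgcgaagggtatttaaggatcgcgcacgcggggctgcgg
COL24A1: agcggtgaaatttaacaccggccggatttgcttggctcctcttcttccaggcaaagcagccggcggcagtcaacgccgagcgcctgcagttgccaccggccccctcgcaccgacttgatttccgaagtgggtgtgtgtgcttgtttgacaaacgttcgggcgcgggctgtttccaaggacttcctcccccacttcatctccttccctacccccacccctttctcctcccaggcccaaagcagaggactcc
COL19A1: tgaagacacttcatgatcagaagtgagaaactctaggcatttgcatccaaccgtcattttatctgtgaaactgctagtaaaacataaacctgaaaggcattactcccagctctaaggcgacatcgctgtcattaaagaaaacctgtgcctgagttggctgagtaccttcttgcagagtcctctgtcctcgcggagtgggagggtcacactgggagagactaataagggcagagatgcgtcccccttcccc
COL15A1: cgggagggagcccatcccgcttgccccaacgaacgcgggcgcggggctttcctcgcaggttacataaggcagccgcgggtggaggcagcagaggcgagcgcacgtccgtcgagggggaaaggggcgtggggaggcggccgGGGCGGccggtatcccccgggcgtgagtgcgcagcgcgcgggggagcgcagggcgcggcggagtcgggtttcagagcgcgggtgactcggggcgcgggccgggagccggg
COL13A1: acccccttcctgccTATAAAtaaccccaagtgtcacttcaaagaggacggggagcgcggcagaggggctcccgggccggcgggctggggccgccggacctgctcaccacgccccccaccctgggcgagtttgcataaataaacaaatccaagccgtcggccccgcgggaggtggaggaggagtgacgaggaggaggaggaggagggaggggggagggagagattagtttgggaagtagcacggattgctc
COL7A1 held 6 matches, the most of the 7: 3 GC boxes, 1 TATAAA and 2 copies of AGGTCA. COL25A1, COL24A1 and COL19A1 held none of the 6 patterns. COL7A1 was the one collagen gene of 32 with AGGTCA in its window, and 10.4% of all 15812 windows of this length had it. TGANTCA was in 0 of the 32 collagen windows and in 5.003% of all. GGGCGG was in 17 collagen windows (53.1%) and 55.8% of all, CCAAT in 8 (25.0%) and 34.4%, and TATAAA in 5 (15.6%) and 9.36%. DR4 was in 0 collagen windows and in 1 of the 15812. A match is a description of letters and not evidence of binding.

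COL4A1 and COL4A2, which encode the chains of the most common type IV collagen, are transcribed away from each other from starts 126 bases apart. The whole stretch between the 2 starts lay in a T3 24 h peak at chr13:110306369-110309198, and it is shown because this 1 peak counts for both genes. It lies at chr13:110307158-110307283 and is given on the minus strand, towards COL4A1.
COL4A1: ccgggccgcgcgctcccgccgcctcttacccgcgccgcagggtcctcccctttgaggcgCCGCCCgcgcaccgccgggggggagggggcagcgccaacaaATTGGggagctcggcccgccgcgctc
It held 1 GC box and 1 CCAAT in 126 bases, with a GC content of 80.2% and 20 CpG. The other pairs of this family are arranged in the same way, with 135 bases between COL4A3 and COL4A4 and 379 between COL4A5 and COL4A6, and no list held a gene-end peak for either pair.

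**Figure D2:**
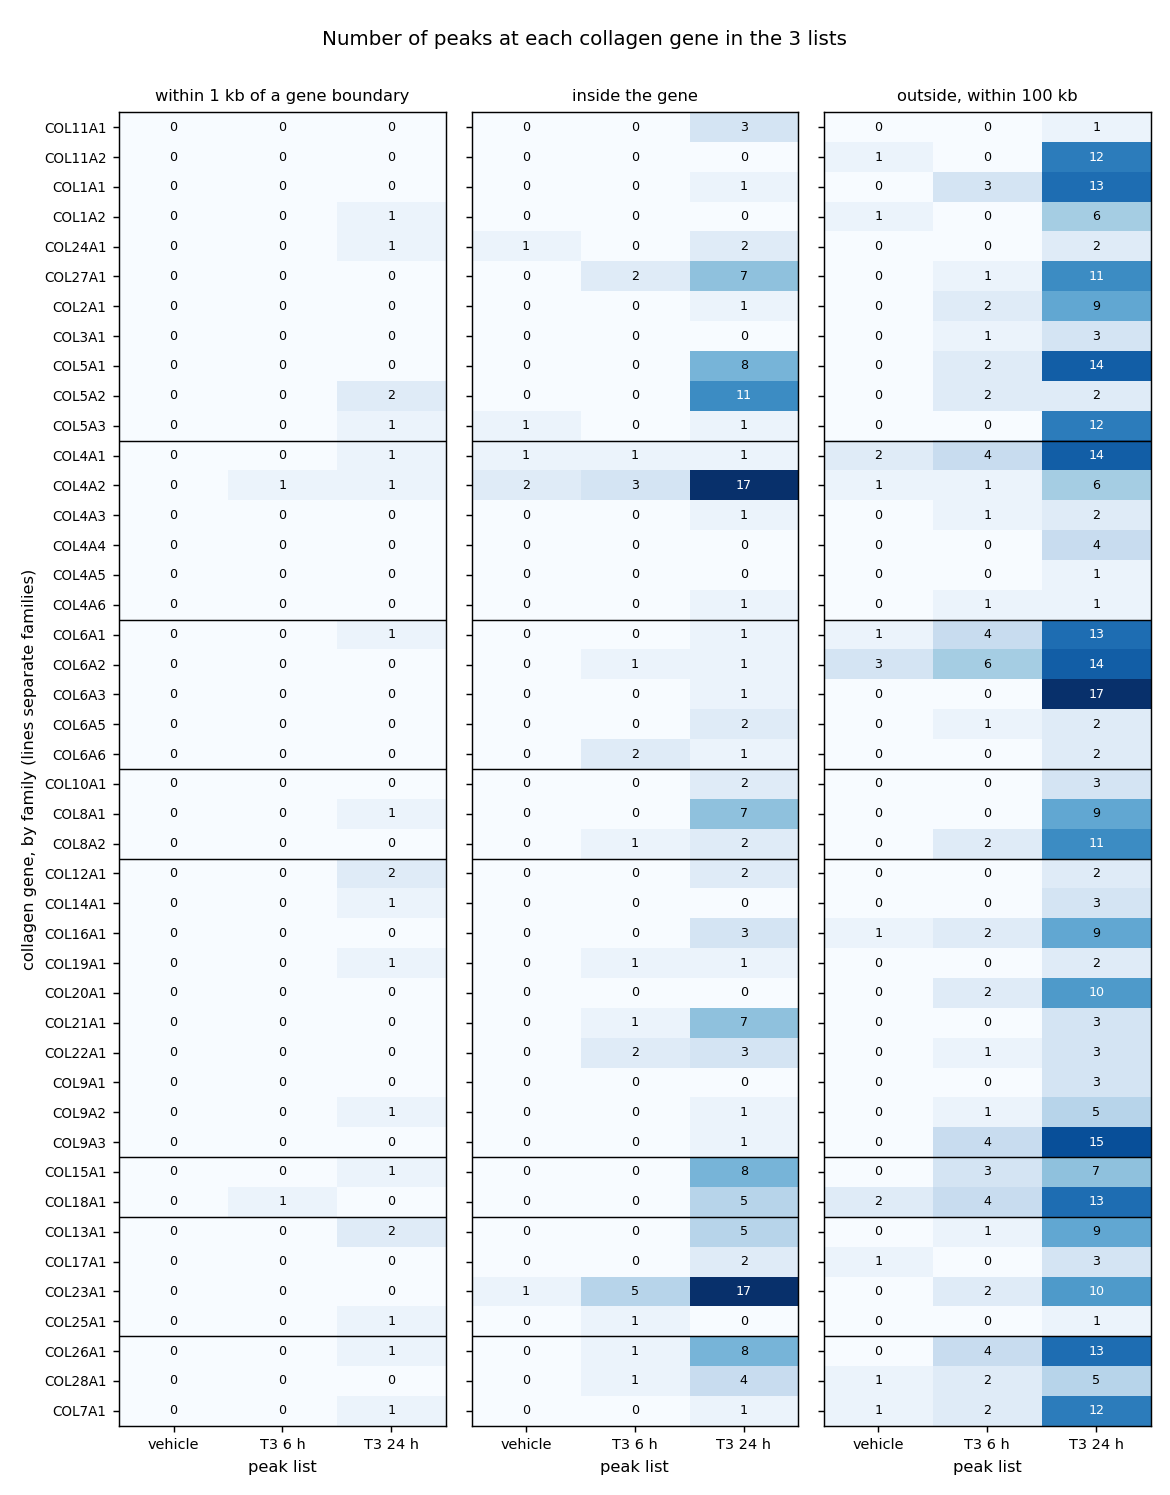
Number of peaks at each of the 44 collagen genes (rows, grouped by family) in the 3 lists (columns), within 1 kb of a gene boundary, inside the gene, and outside within 100 kb; darker blue is a higher number and a peak may count for neighbouring members. The boundary columns of vehicle and T3 6 h are 0 but for COL4A2 and COL18A1, and the highest inside counts are 17 at COL4A2 and COL23A1.

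Among the 11 fibrillar collagens, 4 had a T3 24 h gene-end peak, where 60.8% of all genes had one. The counts of the other families below stand beside the same share. No length-weighted background was computed for single families. COL24A1, a minor fibrillar collagen of developing bone and eye, had a signal of 18.5 (9.92 in the first replicate column and 8.54 in the second). The deposited signal is the sum of both replicate columns on a scale the sources used here do not give, so it ranks peaks within 1 list. COL1A2, which encodes the second chain of type I collagen, had a weaker peak of 10.9 (5.66 and 5.28), at percentile 37.7 of the list. For COL5A2 there were 2 peaks, of 20.6 (10.3 and 10.4) and 19.7 (9.40 and 10.3), but both lay within 1 kb of an end of WDR75 too, so they are not particular to COL5A2. COL5A3 had 9.43 (4.74 and 4.69). The other 7 had none: COL1A1, COL2A1, COL3A1, COL5A1, COL11A1, COL11A2 and COL27A1. For COL1A1, the first chain of type I collagen, the peak nearest to an end had its summit 1.33 kb inside the gene, with a signal of 13.8 (7.04 and 6.75), and its interval, chr17:50200101-50201701, reached past the upper boundary of the gene. The summit nearest to an end of COL5A1 was 1.19 kb from the start, inside the gene, with a signal of 8.59 (4.31 and 4.28). COL3A1, the type III collagen of elastic tissues, had no peak at an end or inside in any list, and its nearest T3 24 h peak lay 8.15 kb outside. For COL2A1, the cartilage collagen, the nearest was 4.92 kb from an end. Vehicle and T3 6 h had 0 fibrillar members with a gene-end peak, where 1.34% and 10.8% of all genes had one.

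Of the 6 type IV genes, the pair COL4A1 and COL4A2 had a gene-end peak, with a signal of 10.2 (5.34 and 4.87) at percentile 30.3 of the T3 24 h list. Its replicate summits lay 627 bp apart, so this position is loosely fixed. COL4A2 was also 1 of the 2 members with a T3 6 h gene-end peak, at chr13:110307903-110309174, with a signal of 10.2 (4.01 and 6.22), a summit 988 bp from the start and replicate summits 464 bp apart. It overlapped the T3 24 h peak and had no counterpart in vehicle. The beaded filament genes had 1 gene-end peak at 24 h among 5 members. That was COL6A1, with a signal of 11.7 (5.38 and 6.36). COL6A2 and COL6A3, which encode the partner chains of COL6A1, had their nearest T3 24 h summits 2.53 and 8.70 kb from an end. COL6A5 and COL6A6 lay farther away, at 50.4 and 38.0 kb.

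The strongest gene-end peak of the collagen genes belonged to COL12A1, a FACIT collagen of tendon and stroma, with 22.7 (8.62 and 14.05) at percentile 86.5 of the list. A second, weak peak of 8.63 lay beside it. COL19A1 had 16.8 (7.54 and 9.22), COL14A1, which binds to fibril surfaces, 15.5 (5.08 and 10.4), and COL9A2, a cartilage chain, 9.81 (3.85 and 5.95). The remaining 6 FACIT genes, COL9A1, COL9A3, COL16A1, COL20A1, COL21A1 and COL22A1, had none. In the short-chain family COL8A1, which encodes a network collagen of vessel walls, had 17.5 (10.7 and 6.71), and COL8A2 and COL10A1 had none.

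COL7A1, the anchoring fibril collagen beneath stratified epithelia, had a peak of 19.5 (8.61 and 10.9), with replicate summits only 4 bp apart. Of the transmembrane collagens, COL25A1 had 18.9 (11.54 and 7.39), with summits 876 bp apart, and COL13A1 had 2 peaks of 11.2 (6.57 and 4.60) and 8.65. COL17A1, the hemidesmosome collagen of basal epithelial cells, was without a gene-end peak throughout, and its nearest T3 24 h summit lay 23.4 kb from an end. COL23A1 was likewise without one. Of the 2 multiplexins, COL15A1 had 11.4 (6.28 and 5.09), while COL18A1, whose cleavage releases endostatin, had a gene-end peak at 6 h and not at 24 h. That 6 h peak, with a signal of 9.29 (4.51 and 4.78), lay 249 bp beyond the far end of COL18A1 and inside SLC19A1, and no peak of the other lists was shared with it. COL26A1 had a weak T3 24 h peak of 8.86 (4.51 and 4.35), and COL28A1 had none.

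**Figure D3:**
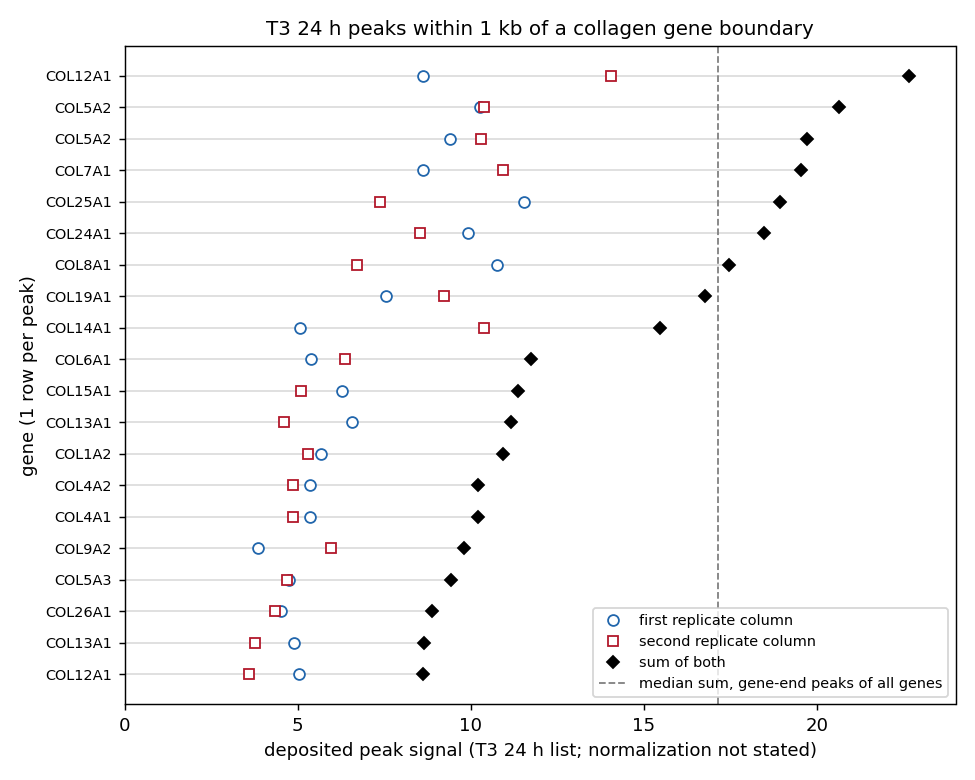
Deposited signal (x axis) of each T3 24 h peak within 1 kb of a collagen gene boundary (1 row per gene and peak; COL4A1 and COL4A2 share 1 peak). Circles and squares are the replicate columns, diamonds their sum, and the dashed line is the median sum of the gene-end peaks of all genes (17.1). Only 7 of 19 distinct peaks lie to the right of that line.

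The 19 distinct collagen gene-end peaks at 24 h ranged in signal from 8.63 to 22.7 with a median of 11.7, at percentile 44.6 of the list. The 11536 gene-end peaks of all genes had a median of 17.1, at percentile 72.2. Of the 19, 7 exceeded that median of all gene-end peaks. Replicate summits lay at most 100 bp apart for 12 of the 19, and for 70.5% of all peaks in the list. The median gap was 72 bp, against 48 bp for gene-end peaks of all genes. The highest possible score of 1000 was held by 12, and the share over all peaks was not computed. Against the other lists, 0 of the 19 were shared with vehicle and 1 (5.26%) with T3 6 h, that of COL4A1 and COL4A2. For gene-end peaks of all genes those shares were 1.59% and 14.6%. Sharing meant an overlap covering 50% or more of the shorter peak.

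The count at gene ends moved with the limit of 1 kb. Just inside that limit lay COL24A1 at 994 bp and COL5A3 at 991 bp, and just outside it COL5A1 at 1194 bp and COL1A1 at 1325.5 bp. With 500 bp, 8 collagen genes had a T3 24 h peak (52.6% of all genes, length-weighted background 25.9), and with 2 kb 22 did (67.6%, 32.8). The 27 members with no T3 24 h gene-end peak had their nearest peak 1.19 to 50.4 kb from an end, with a median of 5.90 kb. In the 7836 genes of the genome without such a peak the median was 6.88 kb.

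Inside the genes the collagen counts of the full lists at 24 h and 6 h lay near the length-weighted background, and the small vehicle count lay below it. At 24 h, 35 of 44 had at least 1 peak inside, more than 1 kb from both boundaries, against 42.4% of all genes and a length-weighted background of 31.5. The side of the background turned with the setting: among the 7103 strongest peaks 9 members had one, against 10.03, and with an irreproducible discovery rate (IDR) of at most 0.01 it was 28, against 28.2. The 139 peaks came to 2.02 per 100 kb of collagen gene, and all genes, not weighted for length, had 1.97. In the longest length class the density at 24 h was 1.88 for its 21 collagen genes and 1.65 for all its genes. In that class the values were 0.365 and 0.284 at 6 h, and 0.0913 and 0.126 in vehicle. At 6 h, 13 members had a peak inside (13.2% of all genes, background 13.7), with 0.320 peaks per 100 kb against 0.317. With an IDR of at most 0.01 the 6 h count was 2, against 5.32. In vehicle 5 did (6.95% of all genes, background 7.998), with 0.0873 per 100 kb against 0.142. With replicate summits at most 100 bp apart the vehicle count was 4, against 2.45. Of the 27 members without a T3 24 h gene-end peak, 21 had a peak inside (77.8%), compared with 41.8% of all genes without one, which are shorter. Only COL3A1, COL4A4, COL4A5, COL9A1, COL11A2 and COL20A1 had neither.

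**Figure D4:**
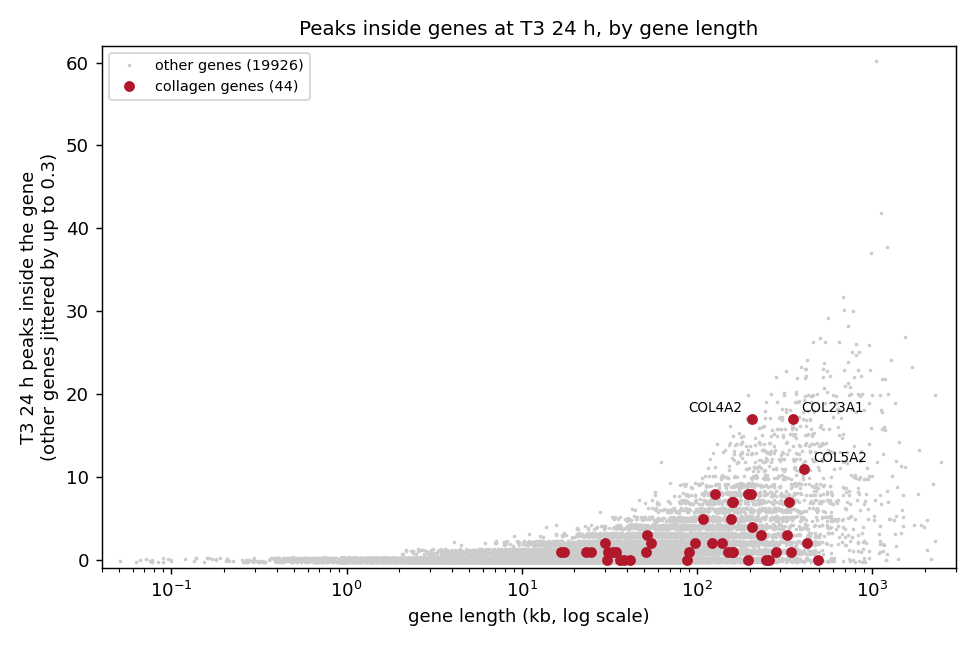
T3 24 h peaks inside each gene (y axis) against gene length (x axis, log scale), for the 44 collagen genes (red) and all other protein-coding genes (grey, jittered). Collagen genes lie within the cloud of other genes of their length, with COL4A2 and COL23A1, at 17 peaks each, at percentile 94.5 of their length class.

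The inside peaks were unevenly spread, and 6 genes held 69 of the 139. COL4A2 and COL23A1 had 17 each at 24 h, both at percentile 94.5 of the genes of their length class. COL5A2 followed with 11 (percentile 84.4), and COL15A1, COL26A1 and COL5A1 had 8 each (percentiles 96.8, 74.6 and 74.6 of their classes). COL14A1, COL1A2 and COL25A1, in contrast, had a T3 24 h peak at an end and 0 inside. The length of COL25A1, 494 kb, is the greatest of the family.

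COL4A2 and COL4A1 differed from each other although they share a promoter region. COL4A1, 158 kb long, had 1 T3 24 h peak inside, and COL4A2, 206 kb long, had 17. Their densities were 0.640 and 8.34 peaks per 100 kb. Over all genes of chromosome 13 the density was 1.62. The strongest COL4A2 peak, at chr13:110396344-110397234 and 89.5 kb from the start, had a signal of 33.5 (18.1 and 15.4), at percentile 98.2. It was shared with the 6 h list, where its signal was 8.98 (5.36 and 3.62), and had no counterpart in vehicle. At 2 other sites in COL4A2 all 3 lists held a peak. These were at chr13:110385412-110386015, with signals of 9.41 in vehicle, 9.90 at 6 h and 12.6 at 24 h, and at chr13:110480801-110481973, with 9.22, 12.02 and 11.2. Signals of different lists are not on a common scale, so these values do not show a rise or fall. A peak near the far end of COL4A1, at chr13:110154185-110155961 in vehicle (11.3), was shared with 6 h (10.3) and missing from the 24 h list.

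**Figure D5:**
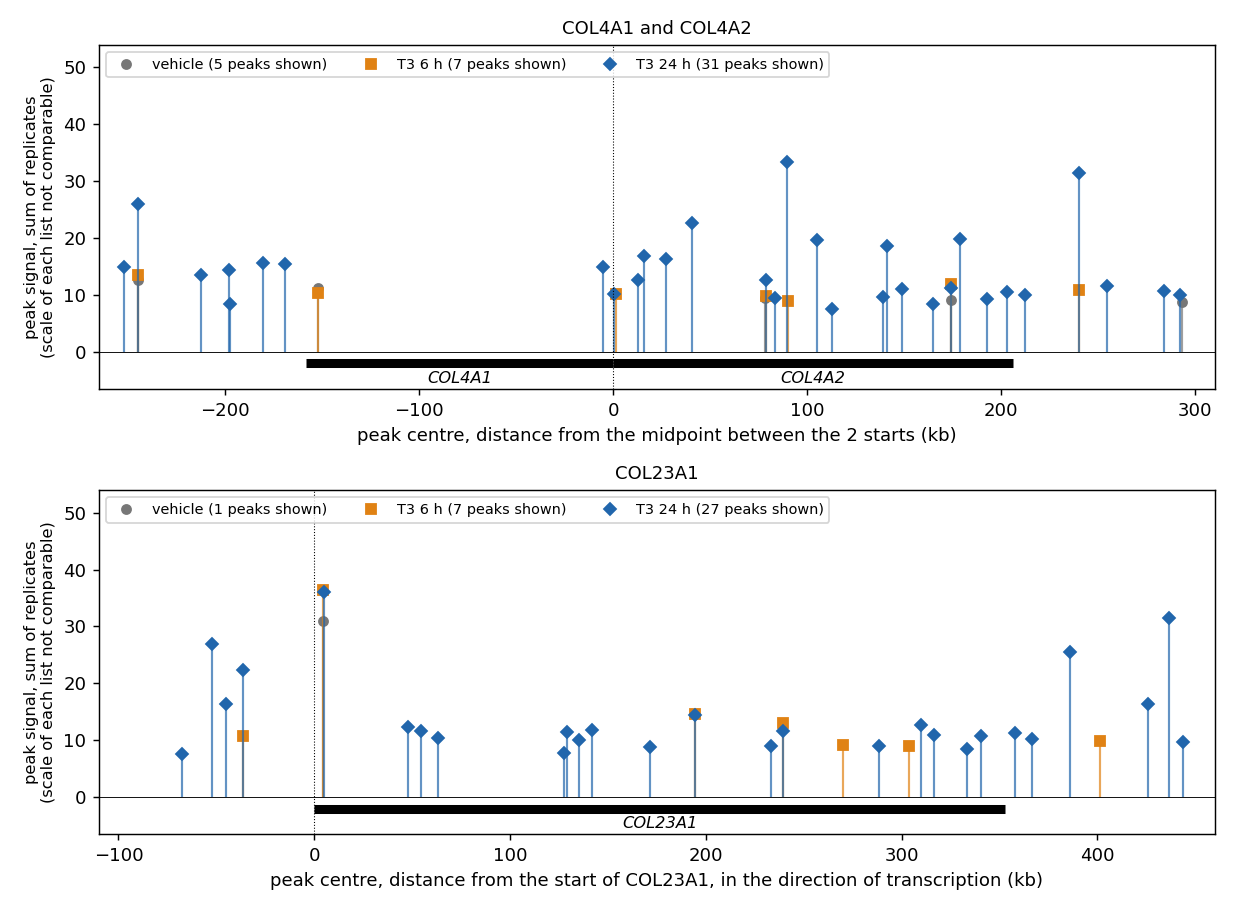
Peaks of the 3 lists in and within 100 kb of COL4A1 and COL4A2 (top) and of COL23A1 (bottom), by distance of the peak's centre (x axis, kb) from the midpoint between the starts of COL4A1 and COL4A2 or from the start of COL23A1, and summed signal (y axis; not comparable between lists). Black bars are the genes. COL4A2 carries 17 T3 24 h peaks inside and COL4A1 carries 1; at COL23A1 the peak of highest signal, 4.7 kb inside the start, is in all 3 lists.

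COL23A1, a transmembrane collagen, held the strongest peak inside any collagen gene in all 3 lists. It lay 4.7 kb inside the start, at chr5:178585334-178585748 in the 24 h list. Its signal was 30.9 in vehicle (13.7 and 17.2), 36.4 at 6 h (16.97 and 19.4) and 36.0 at 24 h (17.7 and 18.4), at percentiles 98.1, 99.4 and 99.0. The summits of the replicates were 84, 2 and 21 bp apart. How reads mapped there was not examined. COL23A1 also had the most inside peaks of the family at 6 h, 5, ahead of COL4A2 with 3. COL22A1, a FACIT collagen of tissue junctions, COL27A1 and COL6A6 had 2 each. Of the 16 other T3 24 h peaks in COL23A1, those at 113 and 157 kb from the far end were shared with 6 h. The gene lies on chromosome 5, where all genes together had 2.50 inside peaks per 100 kb at 24 h, and COL23A1 had 4.85.

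Several other members held strong peaks inside at 24 h, here chosen after their values were seen. COL11A1, a fibrillar collagen of cartilage, had one of 34.3 (15.3 and 18.99) at chr1:102879487-102880023, 3.32 kb from its far end, and no peak within 1 kb of its start. COL28A1 had 32.9 (13.4 and 19.4) at chr7:7492519-7492859. In COL8A1 the strongest reached 34.7 (16.9 and 17.8), at chr3:99658864-99659373. In COL15A1 it was 24.6 (12.2 and 12.4). None of these 4 was in the vehicle or the 6 h list. The 139 inside peaks as a whole had a median signal of 11.6, at percentile 43.6, and inside peaks of all genes 11.9, at percentile 45.9.

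Around the genes, all 44 members had a T3 24 h peak outside but within 100 kb, where 95.7% of all genes did. The number per member ran from 1 to 17 with a median of 6, equal to the median of all genes. COL6A3 had the most, 17, although it had 1 inside and 0 at its ends. Peaks counted here can lie at or inside neighbouring genes, as a COL11A2 peak did within 1 kb of ends of VPS52 and RPS18. The counts are therefore not particular to the member. At 6 h, 26 members had a peak outside within 100 kb (59.1% of all genes, background 24.1) and in vehicle 11 (28.0%, background 11.6). Among the 7103 strongest peaks of each list the count was 24 at 24 h, with a background of 20.8, and 22 at 6 h, with 15.9. The strongest, with a signal of 61.4 in the 24 h list (percentile 99.95), lay 51.7 kb beyond the far end of COL6A2 within 1 kb of an end of SPATC1L, and was in all 3 lists, with 13.1 in vehicle and 17.5 at 6 h.

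The few vehicle peaks near collagen genes were also looked for in the other lists. Of 20 distinct vehicle peaks at an end of, inside or within 100 kb of a member, 11 were shared with 6 h (55.0%) and 12 with 24 h (60.0%). For vehicle peaks near any gene the shares were 22.8% and 34.1%. At 6 h there were 76 such peaks, and 47 of them recurred in the T3 24 h list (61.8%), against 52.3% near any gene. From 446 peaks at 24 h, 12 (2.69%) were shared with vehicle and 47 (10.5%) with 6 h, where the shares near any gene were 2.22% and 8.80%. Sharing with 24 h fell with shorter lists: with 7103 peaks in each, 4 vehicle peaks and 10 of the 6 h peaks were shared with 24 h. The count of vehicle peaks shared with 6 h stayed at 11. With an IDR of at most 0.01, 6 vehicle peaks and 16 of the 6 h peaks were shared with 24 h, and 4 vehicle peaks with 6 h. That limit left 3088 peaks in vehicle, 4048 at 6 h and 42813 at 24 h. Shares near any gene were not computed for the shorter lists, so smaller counts alone do not show weaker sharing. The COL4A1 and COL4A2 region and the chromosome 21 region of COL18A1, COL6A1 and COL6A2 held 11 of the 20 vehicle peaks, 5 and 6 respectively.

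Genes whose products modify, cut, bind or degrade collagen were counted in the same way. Of 45 such genes, 28 had a T3 24 h gene-end peak (62.2%), close to the 60.8% of all genes, with a length-weighted background of 29.0. Among 17 genes of chain modification and folding, 13 had one (background 10.9), and P3H2, P3H3, P4HA3 and FKBP10 did not. P4HA1 and P4HB, which encode subunits of prolyl 4-hydroxylase, had signals of 31.7 (12.4 and 19.3) and 30.6 (14.4 and 16.2). P4HA2 had 16.5 (5.89 and 10.6). MIA3, which helps load bulky collagens into transport vesicles, had 39.8 (18.3 and 21.5), at percentile 99.6. SERPINH1, the collagen chaperone HSP47, had 12.2 (6.53 and 5.71). Of 13 genes of propeptide cleavage and cross-linking 8 had a peak (background 8.56), led by TLL2 with 22.6, while LOX, which starts the cross-linking of fibrils, ADAMTS2, BMP1, PCOLCE and LOXL4 had none. Among 9 receptor genes 6 had one (background 6.07), among them ITGB1, with 28.8, and its collagen-binding partners ITGA1 and ITGA2, with 21.9 and 20.4. Neither DDR1 nor DDR2, the collagen-activated receptor kinases, did. Of the 6 collagenases and gelatinases, MMP14, the membrane-bound collagenase, had a peak, of 10.9 (4.28 and 6.62), against a background of 3.46. At 6 h PLOD2, P4HA1 and ITGA1 had a gene-end peak, which is 6.67% of the 45 against 10.8% of all genes, and in vehicle 0 of the 45 did, against 1.34%.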

How the data were processed

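ATAC-seq was done on 6 samples of Nthy-ORI cells in 3 groups of 2. The deposited files are 3 peak lists of 20 columns in the layout of the IDR method (irreproducible discovery rate), made by the authors from both samples of a group. Per the submitters' processing notes, the tools were MACS2, Bowtie2, Trim Galore, DiffBind and CASAVA 1.7, on hg38. The sources used here give no settings, shift of insertion sites, duplicate handling or blacklist. The deposited signal per peak is the sum of both replicate columns, with no stated normalization. The deposited score is the scaled IDR, and the lists also hold the deposited −log10 of the IDR; all peaks had an IDR of at most 0.05. No read counts were used, so the precision per peak is unknown.

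Gene boundaries came from the RefSeq table and strands and bases from the RefSeq promoter table (GRCh38.p14); 32 of 44 members matched in the latter, and COL1A1, COL1A2, COL2A1, COL3A1, COL5A2, COL6A1, COL6A5, COL8A1, COL9A3, COL14A1, COL20A1 and COL22A1 did not. A peak's position was the mean of its replicate summits. It was classed for every gene as at an end (within 1 kb of a boundary), inside, or outside within 100 kb. Lists were compared by overlap of at least 50% of the shorter peak. The background is the share of all genes in 10 length classes, weighted to the members. No test was run, since each condition has 1 list, and whether the samples of a group were separate cultures is not stated. Python 3.11.15, pandas 2.3.3, numpy 2.4.6 and matplotlib 3.10.9 were used. The classes were tested on 600 planted peaks, all recovered, and overlaps were checked against bedtools 2.31.1. Named with values were members with a vehicle or 6 h gene-end peak, the 12 strongest at 24 h, those with most inside peaks (6 at 24 h, 3 at 6 h) and a set of 15 well-known chains; values of other members (such as COL5A3, COL9A2, COL11A1, COL28A1 and the GC extremes) were chosen after they were seen. Members and lists were chosen with earlier results of these data known. One item of the thyroid marker list is not reported here.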

Additional observations from a re-analysis of the deposited data

How the results depend on the processing

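No paired analysis was possible because each group is 1 list made from both replicates and no result comes from a test. For the same reason no replicate could be left out; ranking by 1 replicate column stands in for it. Gene-end counts at 24 h lay below the length-weighted background in each setting for which it was recomputed (not for the merged summit). With an IDR of at most 0.01, 14 members had a T3 24 h gene-end peak (background 27.6) and 0 at 6 h (background 1.83). Inside counts were 2 in vehicle (background 3.12) and 2 at 6 h (5.32). Outside counts were 6 in vehicle (background 4.02) and 13 at 6 h (9.53). Peaks shared were then 6 between vehicle and 24 h, 16 between 6 h and 24 h and 4 between vehicle and 6 h. With lists of equal length (7103 peaks by signal), gene-end counts were 0 at 24 h (background 8.40), 1 at 6 h (3.10) and 0 in vehicle (0.641). Inside counts were 9 at 24 h (background 10.03) and 8 at 6 h (8.80). Outside counts were 24 at 24 h (20.8) and 22 at 6 h (15.9). With 24 h, 4 vehicle and 10 peaks of 6 h were shared, and 11 vehicle peaks were shared with 6 h. Ranked by the first replicate column, the gene-end count was 1 at 24 h (background 8.36) and 1 at 6 h (3.49). A peak inside was then held by 10 at 24 h (10.004) and 7 at 6 h (8.90), and one outside by 28 at 24 h (20.98). By the second column the gene-end count was 1 at 24 h (background 8.32) and 1 at 6 h (2.71). There, 8 had a peak inside at 24 h (10.09) and 7 at 6 h (9.17), and 23 had one outside at 24 h (20.7). With replicate summits at most 100 bp apart, 9 members had a gene-end peak at 24 h (background 20.9) and 1 at 6 h (1.62). An inside peak at 6 h was held by 4 (5.08), and an outside peak by 3 in vehicle (3.40) and 13 at 6 h (8.99). The merged summit left 1 gene-end member at 6 h. With 500 bp the gene-end counts were 8 at 24 h (background 25.9) and 1 at 6 h (4.21), and with 2 kb 4 at 6 h (5.98). With 50 kb, 4 members had an outside vehicle peak, and its background was not recomputed. Overlap rules and 5 length classes moved no count by over 1.5 times.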
